A study of Mus musculus with 8 samples.

Results

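The genes described here are Pdgfra, Pdgfrb, Cd248 and Cd34, which encode surface proteins of mesenchymal progenitors and of the perivascular cells called pericytes. They were chosen by name and are 4 of the 273 genes in the deposited tables, and all 4 belong to the 220 genes that the authors marked UP in Psat1KO (53 others were marked DOWN). The rule behind these marks is not given in the sources used here. 5-hydroxymethylcytosine (5hmC) is the form of cytosine that TET enzymes make by oxidising methylated cytosine. DNA carrying it was immunoprecipitated from sonicated genomic DNA of primary myoblasts grown from hindlimb muscle, and sequenced.

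Psat1KO cells were Pax7 CRE+/-;Psat1fl/fl, so that both copies of Psat1, an enzyme gene of serine biosynthesis, were floxed and a Cre allele sat at Pax7, the transcription factor gene of muscle stem cells. CTRL cells were Pax7+/+; Psat1fl/fl, with the same floxed alleles and no Cre. An effect of the Cre allele and one of Psat1 loss therefore cannot be told apart. Each genotype had 2 immunoprecipitated libraries, and the 4 input libraries of the 8 samples were not analysed here. The animals' age and whether replicates came from separate animals are not given, so a p-value here measures no more than library-to-library spread, which can be technical.

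Each gene carried a read coverage signal in a fixed number of bins, and its level is the mean over them. The values came as 2 numbered tables, sets 1 and 2, each with 1 library of each genotype. Set 1 was taken as replicate 1 and set 2 as replicate 2, an assumption from the shared numbers that the labels do not state. The smallest step of the values, taken as 1 read in a signal scaled to 1000000 reads, gave 30559008 and 69794435 reads in the Psat1KO libraries of sets 1 and 2, against 22632699 and 69765569 reads in CTRL. A position of an UP gene carried 0.720 and 1.53 reads on average in Psat1KO, against 0.539 and 1.61 reads in CTRL, so set 2 is the more precise. No RNA was measured, so the tables cannot check the myoblast label by expression. Of 13 markers of myoblasts and muscle stem cells, Pax7, Myf5 and Myf6 are in the tables, all marked DOWN.

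PDGFRα and PDGFRβ are receptor tyrosine kinases for platelet-derived growth factors. In skeletal muscle PDGFRα marks the fibroadipogenic progenitors of the connective tissue, and PDGFRβ marks pericytes and other mural cells. CD248, also called endosialin, is a C-type lectin transmembrane protein of pericytes and fibroblasts, and CD34 is a sialomucin of progenitor and endothelial cells that also occurs on quiescent muscle stem cells. 5hmC is found mostly at CG dinucleotides, is often present in the bodies of active genes and low at their CG-rich starts.

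The window that the bins cover is not stated, and the values themselves bear on it. In bins 21 to 81 the Pearson correlation of adjacent bins depended on gene length. It averaged 0.639 over the 4 libraries in the 14 UP genes shorter than 3 kb and 0.0458 in the 42 UP genes of 100 kb or more. In bins 1 to 20 it was 0.205 in the short and 0.195 in the long genes, and from bin 82 to the last it was 0.308 in the short and 0.357 in the long genes. This is the pattern of bins 21 to 81 stretched over the gene, with 20 bins of fixed width on either side, and the bins are read that way below. The correlations pool bins across genes that share a library, and each bin was limited to a signal of 0.5. On this reading a bin of the gene body stands for 42 bp in Cd248, 368 bp in Cd34, 655 bp in Pdgfrb and 769 bp in Pdgfra. Neighbouring body bins would share more DNA fragments in Cd248 than in the receptor genes, where bins are wider. The fragment length is not given, so the extent of this sharing is not known. All 4 genes lie on the plus strand, and bin 1 was taken as the upstream end.

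**Figure D1:**
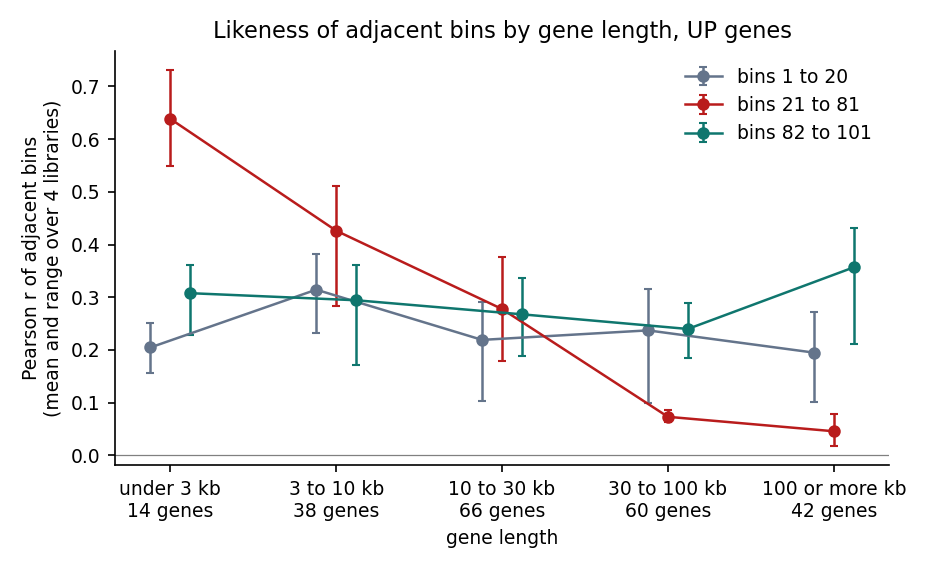
Pearson correlation of adjacent bins (vertical axis) against gene length class (horizontal axis, with the number of UP genes) for 3 ranges of bins; points are means and bars the range over the 4 libraries. Bins 21 to 81 drop from 0.639 in the shortest to 0.0458 in the longest genes, while the outer bins keep means between 0.195 and 0.357.

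Cd248 carried the most 5hmC signal of the 4 genes, Pdgfrb was next, and Pdgfra and Cd34 were lowest. The lowest Cd248 library, at 0.0403, lay above the highest Pdgfrb library, at 0.0286. The lowest Pdgfrb library, at 0.0229, lay above every library of Pdgfra and Cd34. Pdgfra and Cd34 overlapped, and their order was turned in the Psat1KO library of set 2 only. These are mean signals per position. Among 220 UP genes the mean over all libraries placed Cd248 at rank 3, Pdgfrb at rank 64, Pdgfra at rank 171 and Cd34 at rank 173 from the top.

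**Figure D2:**
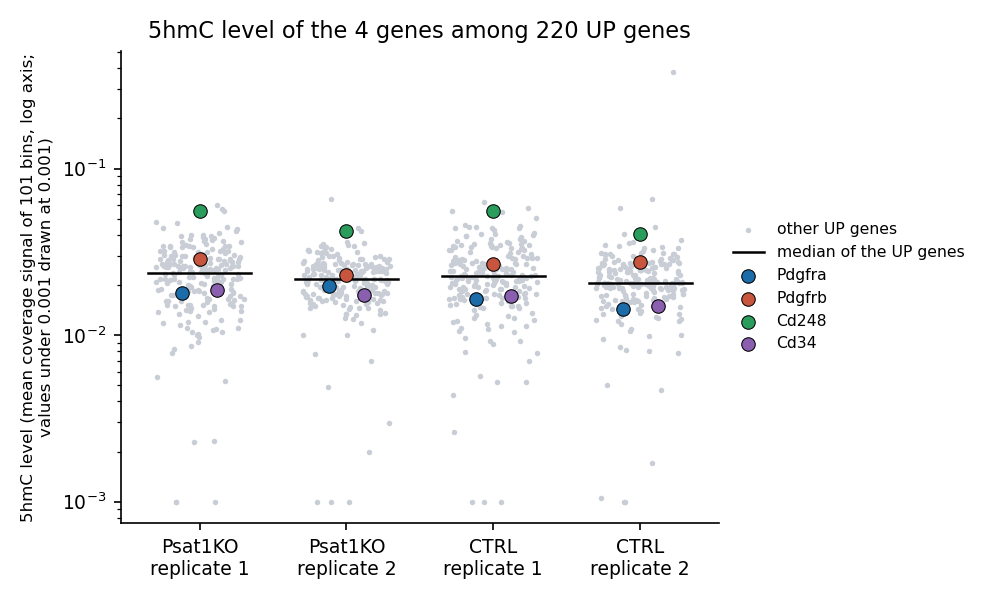
5hmC level (mean coverage signal over the bins, log axis, values under 0.001 drawn at 0.001) of the 220 UP genes in each library, with the 4 genes coloured and the median as a line. Cd248 lies at 0.0403 or above and Pdgfra and Cd34 at 0.0197 or below in every library.

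None of the 4 genes differed between genotypes past the test. With limma on log2(level + 0.005), fitted over all 273 genes and adjusted by Benjamini-Hochberg, 0% of genes lay under the threshold of 0.05. At an unadjusted p under 0.05 there were 8 genes (2.93%), none of them one of the 4. At Pdgfra and Cd34 both Psat1KO libraries lay above both CTRL libraries, 2 of 4 genes, whereas 16.8% of the UP genes did so (12.7% the opposite way, 29.5% either way). With 4 genes this share is no result about them. The smallest p that an exact permutation test of 2 against 2 libraries can give is 0.333.

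Pdgfra (transcript NM_011058, chromosome 5, 75151322 to 75198206, GRCm38) encodes the receptor that marks fibroadipogenic progenitors. Its level was 0.0178 and 0.0197 in the Psat1KO libraries of sets 1 and 2, against 0.0166 and 0.0144 in CTRL. The groups did not overlap, and the ratio of Psat1KO to CTRL was 1.08 in set 1 and 1.36 in set 2. Only 10 of the 220 UP genes had a higher ratio in set 2, where the median ratio was 1.04. In set 1 the ratio of Pdgfra did not stand out. It lay between the lower and upper quartiles of the UP genes, whose median ratio there was 0.956. The limma log2 ratio was 0.21 with a 95% interval of -0.11 to 0.54 (adjusted p = 0.953, n = 2 per genotype). The means were 0.0187 ± 0.00131 in Psat1KO and 0.0155 ± 0.00152 in CTRL (SD, n = 2).

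The level of Pdgfra rests on few reads. Summed over the bins, Psat1KO had 55 and 138.6 reads in sets 1 and 2, against 37.9 and 101.5 in CTRL. In set 2 counting error alone gave a 95% Poisson interval of the level from 0.0166 to 0.0233 in Psat1KO and from 0.0118 to 0.0176 in CTRL. These intervals overlap, but overlap does not show that counting error covers the difference, which was not tested. Such intervals cover counting error only and treat bins as independent and reads as molecules. In Psat1KO 71 and 48 of its bins were below 0.001, that is without coverage, in sets 1 and 2, against 77 and 50 in CTRL.

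Along Pdgfra, bin 22, close to the start of the gene body, had a signal of 0.0656 and 0.157 in Psat1KO, against 0.176 and 0.106 in CTRL. It was the highest bin in Psat1KO of set 2 and the second highest in both CTRL libraries. In Psat1KO of set 1 it held about 2 reads and did not stand out. Several other bins there had nearly the same signal, among them the adjacent bin 23 at 0.0654. Bin 28 was less even, with 0.0327 and 0.107 in Psat1KO, against 0.176 and 0.0646 in CTRL. The genotypes overlapped at both bins. Bins 63 and 64, which were singled out after their values were seen, went opposite ways. Bin 63 held about 4 and 9 reads in Psat1KO, against 1 and 1 in CTRL, while bin 64 held 0 and 2.29 reads in Psat1KO, against 2.99 and 5.98 in CTRL. Over all bins of Pdgfra, 7 were covered in and higher in both Psat1KO libraries and 6 were covered in and higher in both CTRL libraries. That is 6.93% and 5.94% of its bins, where all bins of the UP genes gave 8.29% and 7.32%.

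RefSeq (GRCm38.p6) gives promoters, from 250 bases before to 50 after a gene's start, for Pdgfra and Cd34. They are shown because 5hmC lies mostly at CG dinucleotides, which stand in capitals and read the same on both strands. The first is chr5:75152001-75152300 and the second chr1:194938571-194938870, both on the plus strand.
Pdgfra: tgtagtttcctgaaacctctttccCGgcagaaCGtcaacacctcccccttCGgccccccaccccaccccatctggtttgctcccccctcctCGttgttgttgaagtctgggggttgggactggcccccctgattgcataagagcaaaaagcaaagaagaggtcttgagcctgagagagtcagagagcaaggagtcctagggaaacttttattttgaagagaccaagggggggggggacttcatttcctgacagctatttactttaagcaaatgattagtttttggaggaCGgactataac
Cd34: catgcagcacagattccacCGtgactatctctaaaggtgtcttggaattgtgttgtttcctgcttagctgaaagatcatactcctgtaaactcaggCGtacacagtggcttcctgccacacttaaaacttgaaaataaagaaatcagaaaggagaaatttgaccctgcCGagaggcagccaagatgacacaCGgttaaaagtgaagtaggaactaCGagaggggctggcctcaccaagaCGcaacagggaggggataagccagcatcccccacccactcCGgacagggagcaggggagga

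The Pdgfra promoter held 5 CG dinucleotides in 300 bases and the Cd34 promoter held 7, where the median of 32851 promoters was 7. As many or more were found in 62% of promoters for Pdgfra and in 52.1% for Cd34. Neither promoter thus held more than the median. The start used for Pdgfra lies 929 bases inside the gene bounds. Around the start, in bins 19 to 23, Pdgfra had a mean signal of 0.0327 and 0.0458 in Psat1KO, against 0.0352 and 0.0326 in CTRL. The median UP gene had 0.0196 and 0.0144 there in Psat1KO, against 0.0177 and 0.0172 in CTRL. Cd34 had 0.0131 and 0.0261 in Psat1KO, against 0.00884 and 0.0186 in CTRL. Pdgfra was thus above the median UP gene at its start in every library, with overlapping genotypes, and Cd34 only in set 2. For Pdgfra this range includes bin 22, and in CTRL of set 1 its other bins were without coverage. The value is therefore not independent of that bin.

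Pdgfrb (NM_001146268, chromosome 18, 61045127 to 61085067) encodes the receptor by which mural cells respond to PDGF-B from endothelium. Its level was 0.0286 and 0.0229 in Psat1KO, against 0.0266 and 0.0273 in CTRL. The groups overlapped and the sets went opposite ways, with a ratio of Psat1KO to CTRL of 1.07 in set 1 and 0.838 in set 2. The limma log2 ratio was -0.06 with a 95% interval of -0.45 to 0.32 (adjusted p = 1, n = 2 per genotype). It turned to 0.07 without Psat1KO replicate 2.

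Pdgfrb had 1 position that stood out in all libraries. Bin 54, about 55% along the gene body, was the highest bin in each of them, with a signal of 0.389 and 0.288 in Psat1KO, against 0.357 and 0.350 in CTRL. These correspond to 11.9 and 20.1 reads in Psat1KO, against 8.08 and 24.4 reads in CTRL, and the genotypes overlapped. The bin was 12.6 to 13.6 times the gene's mean level and held 12.4% to 13.5% of its signal. At most 0.158% of the bins of UP genes reached as high a signal in the same library. Only 7 of the 220 UP genes (3.18%) had the same highest bin in all 4 libraries, and Pdgfrb was the only one of the 4 genes among them. Without bin 54 the ratio of Psat1KO to CTRL was 1.07 in set 1 and 0.840 in set 2, so it does not carry the ratios.

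Other maxima of Pdgfrb were less even. Bin 30 was among the 5 highest bins in every library, with 0.178 and 0.108 in Psat1KO, against 0.177 and 0.113 in CTRL. Bin 39 was the second highest in both libraries of set 2, at 0.160 in Psat1KO and 0.172 in CTRL, but in set 1 it held 0.0656 in Psat1KO and 0.0442 in CTRL. Bin 64 was the second highest in both libraries of set 1, at 0.327 in Psat1KO and 0.272 in CTRL, and in set 2 it held 0.0424 in Psat1KO and 0.128 in CTRL. Bins 39 and 64 thus each ranked just below bin 54 in both genotypes of a set, although bin 64 was also at rank 3 in CTRL of set 2. In bins 21 to 40 Pdgfrb ranked 21 and 20 among the UP genes in Psat1KO, against 64 and 9 in CTRL.

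Cd248 (NM_054042, chromosome 19, 5068078 to 5070640) is only 2563 bp long. Its level was 0.0558 and 0.0423 in Psat1KO, against 0.0552 and 0.0403 in CTRL. The genotypes overlapped, and what separated the libraries was the set: both libraries of set 1 lay above both of set 2, by 1.32 times in Psat1KO and 1.37 times in CTRL. The same order of the sets was seen in 71 of 220 UP genes (32.3%). The ratio of Psat1KO to CTRL was 1.01 in set 1 and 1.05 in set 2. The limma log2 ratio was 0.04 with a 95% interval of -0.59 to 0.66 (adjusted p = 1, n = 2 per genotype), and its sign turned with each library scaled to its median gene, at -0.03, and when Psat1KO replicate 1 (-0.14) or CTRL replicate 2 (-0.17) was left out.

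Cd248 ranked 3 among the 220 UP genes in both Psat1KO libraries, against ranks 3 and 5 in CTRL. It had 2.38 and 1.94 times the level of the median UP gene in Psat1KO, against 2.44 and 1.95 times in CTRL. Among the 14 UP genes shorter than 3 kb it was the highest, at a mean of 0.0484 over the libraries, against 0.0394 for the next and a median of 0.0250. The high level was thus not shared by short genes in general.

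The signal of Cd248 was concentrated in a broad dome past the midpoint of the gene body. In bins 51 to 70, a range set after its values were seen, the mean signal was 0.157 and 0.120 in Psat1KO, against 0.145 and 0.121 in CTRL. The median UP gene had 0.0184 and 0.0195 there in Psat1KO, against 0.0200 and 0.0172 in CTRL. These 20 bins held 55.6% and 56.4% of the gene's signal in Psat1KO, against 51.8% and 59.2% in CTRL. The dome ranked 1 and 1 among the UP genes in Psat1KO and 2 and 3 in CTRL. In the dome the ratio of Psat1KO to CTRL was 1.08 in set 1 and 0.998 in set 2.

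The early body of Cd248, bins 21 to 40, was lower than the dome. These bins, which follow the start, had 0.00491 and 0.0115 in Psat1KO, against 0.0179 and 0.0123 in CTRL. The median UP gene had 0.0198 and 0.0201 there in Psat1KO, against 0.0199 and 0.0199 in CTRL. In Psat1KO of set 1 only bins 31 and 40 of this stretch held coverage. There the gene ranked 202 and 178 among the UP genes in Psat1KO, against 124 and 172 in CTRL, although it ranked 1 and 1 in Psat1KO and 1 and 2 in CTRL in bins 41 to 60. Both Psat1KO libraries lay below both CTRL libraries in bins 21 to 40, but the ratio in set 2 was 0.933. The limma log2 ratio of this stretch was -0.64 with a 95% interval of -1.72 to 0.44 (adjusted p = 0.984, n = 2 per genotype). The flank upstream, bins 1 to 20, was high again, at 0.0554 and 0.0373 in Psat1KO, against 0.0508 and 0.0347 in CTRL. Bins 41 to 50, just before the dome, had 0.0429 and 0.0256 in Psat1KO, against 0.0659 and 0.0200 in CTRL. All genotypes and sets thus showed the same order along the gene: a high flank, a lower early body and a high stretch after it.

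Cd34 (NM_001111059, chromosome 1, 194938821 to 194961292) had a level of 0.0187 and 0.0174 in Psat1KO, against 0.0171 and 0.0149 in CTRL. The groups did not overlap, but the lower Psat1KO and the higher CTRL library differed by less than 0.001. The ratio of Psat1KO to CTRL was 1.09 in set 1 and 1.17 in set 2. The limma log2 ratio was 0.14 with a 95% interval of -0.18 to 0.45 (adjusted p = 0.953, n = 2 per genotype). The means were 0.0181 ± 0.000910 in Psat1KO and 0.0160 ± 0.00158 in CTRL (SD, n = 2), from 57.8 and 122.9 reads in Psat1KO and 39.1 and 104.9 reads in CTRL summed over the bins.

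The highest bin of Cd34 differed between libraries, but bin 95 was among the 7 highest in each of them. Bin 95 held 0.131 and 0.0859 in Psat1KO, against 0.0884 and 0.0573 in CTRL, with overlapping genotypes. The next bin, bin 96, held 0.235 and 0.0589 in Psat1KO, against 0.0877 and 0.100 in CTRL. The highest bin was bin 96 in Psat1KO of set 1 and bin 58 in Psat1KO of set 2, against bin 78 in CTRL of set 1 and bin 96 in CTRL of set 2. Bin 58 held 0.0994 in Psat1KO and 0.100 in CTRL of set 2, and 0.0654 in Psat1KO and 0 in CTRL of set 1. The downstream flank, from bin 82 on, had a higher mean than the body and the upstream flank in each library, at 0.0316 and 0.0244 in Psat1KO, against 0.0269 and 0.0194 in CTRL. The gene body had 0.0153 and 0.0164 in Psat1KO, against 0.0152 and 0.0146 in CTRL. The flank upstream had 0.0164 and 0.0136 in Psat1KO, against 0.0132 and 0.0113 in CTRL.

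**Figure D3:**
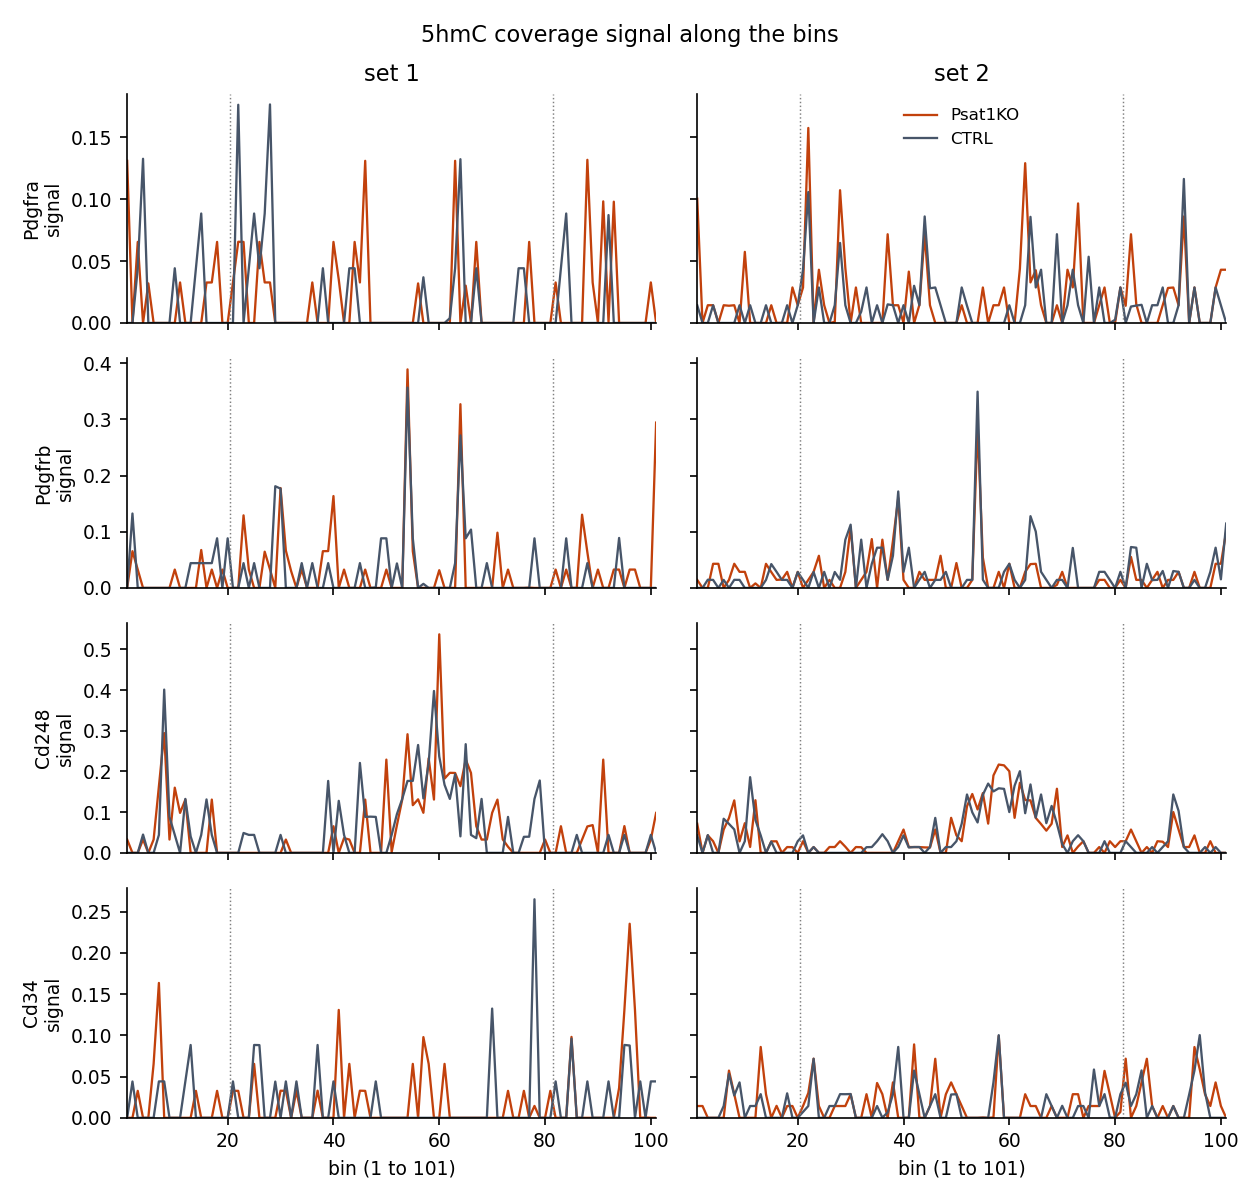
Coverage signal (vertical axis, own scale per gene) along the bins (horizontal axis) for Psat1KO and CTRL in set 1 (left) and set 2 (right); dotted lines mark bins 21 to 81, read as the gene body. The peak of Pdgfrb at bin 54 and the dome of Cd248 in bins 51 to 70 occur in all 4 libraries, while Pdgfra and Cd34 in set 1 are mostly single spikes of a few reads.

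The profiles of Pdgfrb and Cd248 were more alike between libraries than those of Pdgfra and Cd34. The Pearson correlation over the bins between pairs of libraries ranged from 0.556 to 0.805 for Pdgfrb and from 0.501 to 0.765 for Cd248. It ranged from 0.0641 to 0.506 for Pdgfra and from 0.180 to 0.580 for Cd34. The median UP gene had 0.282 to 0.605 over the same 6 pairs of libraries. Bins of a gene share mappability and base composition, so these values describe likeness only. For the deepest pair, Psat1KO and CTRL of set 2, the values were 0.805 for Pdgfrb, 0.765 for Cd248, 0.580 for Cd34 and 0.506 for Pdgfra, against a median of 0.605. Of the bins, 25 were covered in all 4 libraries for Cd248, 11 for Pdgfrb, 6 for Cd34 and 4 for Pdgfra, with a median of 9 over the UP genes.

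The profiles of the 4 genes did not resemble each other, with correlations between -0.17 (Pdgfra and Cd34) and 0.139 (Pdgfrb and Cd248) over the bins of the mean profile. The UP genes most like each by the same measure, out of 219 others, were named by rule. For Cd248 they were Lgals3bp at 0.543, which encodes a secreted galectin-binding glycoprotein, and the serpin gene Serpinb2 at 0.471. For Pdgfrb they were the lysyl oxidase gene Loxl1 at 0.360 and the microfibril gene Mfap5 at 0.306. For Pdgfra they were the cadherin gene Cdh11 at 0.342 and the G-protein subunit gene Gng11 at 0.325. For Cd34 they were 2200002D01Rik at 0.397 and the VE-cadherin gene Cdh5 at 0.297.

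By stretch of bins, again no difference passed. With limma over 1365 combinations of gene and stretch, 0% lay under an adjusted p of 0.05, and 40 (2.93%) lay under an unadjusted p of 0.05, none from the 4 genes. Of their 20 stretches, 4 lay higher in both Psat1KO libraries than in both CTRL libraries and 3 lower. Over all UP genes 17.5% of stretches were higher and 13.4% lower in this way. The smallest unadjusted limma p of the 20 was 0.0947 (adjusted p = 0.984) at the last stretch, from bin 81 on, of Pdgfra, with 0.0203 and 0.0212 in Psat1KO, against 0.0105 and 0.0157 in CTRL (n = 2 per genotype). The same stretch of Cd248 had 0.0313 and 0.0231 in Psat1KO, against 0.00842 and 0.0186 in CTRL, a log2 ratio of 0.85 with a 95% interval of -0.29 to 1.99. Bins 61 to 80 of Pdgfrb had 0.0229 and 0.00884 in Psat1KO, against 0.0320 and 0.0236 in CTRL, a log2 ratio of -0.73 with a 95% interval of -2.07 to 0.62. Bins 41 to 60 of Cd34 had 0.0245 and 0.0195 in Psat1KO, against 0.00221 and 0.0165 in CTRL, so that the ratio was 11.1 in set 1 and 1.18 in set 2. In CTRL of set 1 only bin 48 of this stretch held coverage, at 0.0442, which is 1 read. The ratio of set 1 thus rests on that read.

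**Figure D4:**
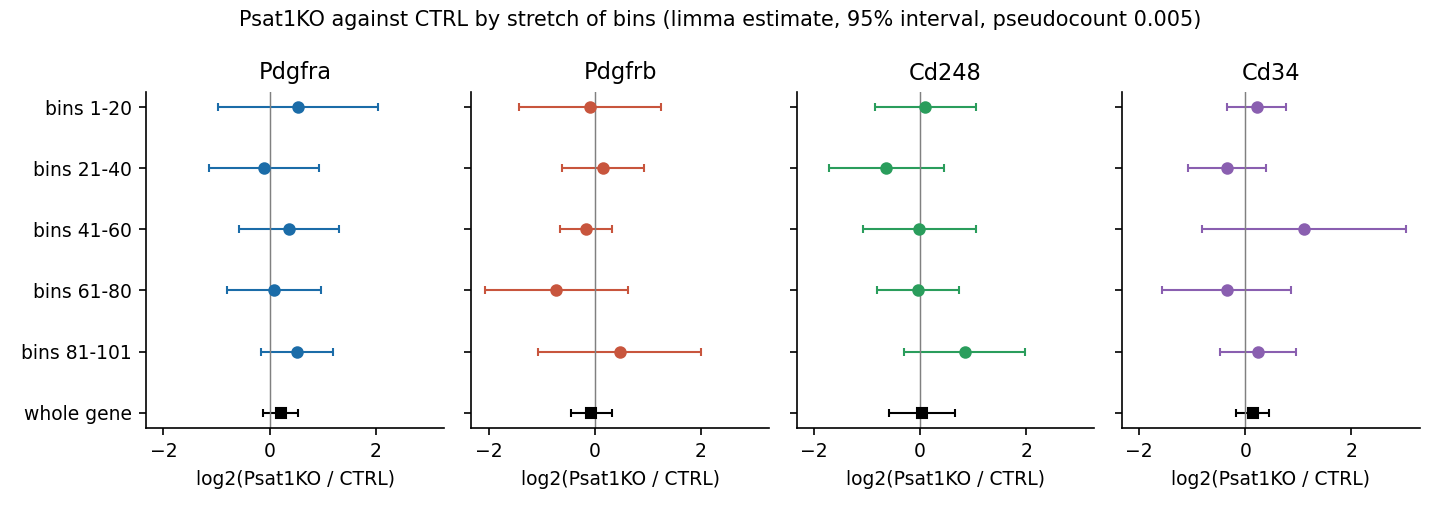
limma log2 ratio of Psat1KO to CTRL (horizontal axis, with a pseudocount of 0.005) for 5 stretches of bins and for the whole gene (black squares); bars are 95% intervals from 2 libraries per genotype. Every interval of the 4 genes includes 0, and those of the stretches reach from -2.07 to 3.04.

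The other genes of these cell types and pathways gave the same count of calls. Of 16 markers of pericytes and mural cells, 6 are in the tables, all UP, and 0 passed the test in either direction. Their median log2 ratio was -0.09, beside 0.01 over the UP genes. Besides Pdgfrb and Cd248 these are the proteoglycan gene Cspg4, with ratios of 1.17 and 1.00 in sets 1 and 2, the adhesion gene Mcam with 0.884 and 0.933, and the transcription factor genes Tbx18 with 0.830 and 0.920 and Foxs1 with 0.621 and 0.958. Cspg4, Mcam, Tbx18 and Foxs1 were at ranks 56, 139, 192 and 28 among the UP genes, so that Cd248 was the highest of the list.

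Of 19 markers of fibroadipogenic progenitors, 10 are in the tables, 9 UP and 1 DOWN, and 0 passed in either direction, with a median log2 ratio of -0.08. Pdgfra and Cd34 are 2 of the 4 members with a log2 ratio above 0, and the other two are the collagen genes Col1a1 and Col1a2. The other 6 had a log2 ratio below 0. Among them the decorin gene Dcn had ratios of 0.749 and 0.794 in sets 1 and 2, and the DOWN gene Mme, which encodes neprilysin, had 0.741 and 0.825. Osr1 had 0.744 and 1.06 and Twist2 had 0.780 and 0.945, both genes of transcription factors, and the matrix gene Smoc2 had 0.935 and 1.03. The transcription factor gene Hic1 had a level of 0.0375 and 0.0438 in Psat1KO, against 0.0580 and 0.378 in CTRL, so that 1 CTRL library stood far above the other three. Its log2 ratio was -1.77 (limma adjusted p = 0.953, n = 2 per genotype), and its mean level ranked 1 among the UP genes. Endothelial markers were present with 3 of 9 members, Cd34, Cdh5 and Eng. They had a median log2 ratio of 0.13, and 0 passed. The 3 markers of myoblasts and muscle stem cells had a median log2 ratio of -0.05, and 0 passed. None of 5 immune markers is in the tables.

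Of 15 genes of PDGF ligands and signalling, Pdgfd and Plat are in the tables, and 0 passed. Plat encodes the plasminogen activator that can activate PDGF-CC, a ligand of PDGFRα. Its level was 0.0255 and 0.0260 in Psat1KO, against 0.0198 and 0.0203 in CTRL, with a ratio of 1.28 in both sets. The groups did not overlap (log2 ratio 0.30, limma adjusted p = 0.953, n = 2 per genotype). Of all UP genes 16.8% lay higher and 12.7% lower in this way. Pdgfd, a ligand of PDGFRβ, had 0.0153 and 0.0156 in Psat1KO, against 0.0176 and 0.0158 in CTRL. Besides Plat, Pdgfra and Cd34, the listed genes Col1a1, Col1a2 and Lgals3bp lay higher in Psat1KO without overlap. Pdgfd, Dcn, Mme, Tbx18, Twist2 and Hic1 lay lower without overlap. Mme is marked DOWN, so the shares of the UP genes do not cover it. With so few listed genes this is no result about the lists. None of 6 genes of the CD34 family list is in the tables. Of 6 genes of CD248-like proteins and their partners only Lgals3bp is, with 0.0210 and 0.0202 in Psat1KO, against 0.0189 and 0.0182 in CTRL, and it did not pass (limma adjusted p = 0.953).

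**Figure D5:**
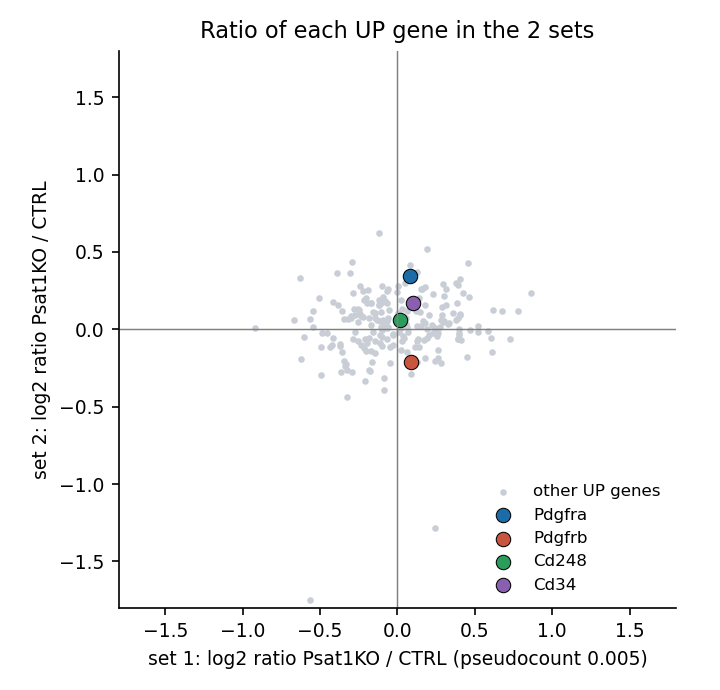
log2 ratio of Psat1KO to CTRL (pseudocount 0.005) in set 1 (horizontal axis) and set 2 (vertical axis) for the 220 UP genes, with the 4 genes coloured; 1 gene beyond an axis is drawn at its edge. Pdgfra, Cd34 and Cd248 lie above 0 on both axes and Pdgfrb only in set 1, all inside the cloud of the other UP genes.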

How the data were processed

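The coverage signal per bin was made by the authors and deposited as 2 tables with 1 Psat1KO and 1 CTRL block each for UP and DOWN genes. The mm10 build is named in the submitters' processing notes, as are MACS 1.4.2, Bowtie 1.3.1 and Trim Galore 0.6.7, with no role stated. No source used here gives the tool that made the bins, their window, the scaling or any input correction. Libraries were assigned by the genotype of the block and, as an assumption, by the number of the table, on which the replicate block and the names of left-out libraries rest.

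Levels (mean of the bins), and means of 5 stretches of bins, were tested with limma 3.58.1 in R 4.3.3 on log2(level + 0.005), Psat1KO against CTRL, 2 against 2 libraries, without a block, over all 273 genes and 1365 gene stretches. The fit was run on simulated data with planted changes larger than any estimate for the 4 genes. That run therefore cannot show whether changes of their size would be found. Folds in the text are plain ratios, whereas log2 ratios hold the pseudocount, which pulls them towards no change, the more so at low levels. Genes were matched to RefSeq GRCm38.p6, 268 by transcript and 5 by symbol. Depth was read from the smallest step of the values, and 80.5% to 86.6% of low values lay within 1% of its multiples. In the DOWN genes set 1 held 0% of bins between 0 and 0.001 and set 2 18.8% and 19.3% (Psat1KO and CTRL), so those blocks were not made alike and a fit over UP genes alone was an alternative.

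The text names the 4 genes, the 2 genes most like each in bin profile, and the listed markers and pathway genes found in the tables. The genes and lists were chosen with earlier results of these data known. Single bins and bins 51 to 70 were chosen after their values were seen. Alternatives were the pseudocount, a filter on low levels, limited bins, the median of bins, scaling, UP genes alone, a replicate block and leaving out each library.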

Additional observations from a re-analysis of the deposited data

How the results depend on the processing

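The count of calls stayed at 0 for genes and for stretches of bins under all 12 alternatives, with 0 to 15 genes and 5 to 110 stretches at an unadjusted limma p under 0.05, where the main settings had 8 and 40. The counts with replicates left out were 0 to 0. With the replicate block, limma also called 0 genes and 0 stretches, and the adjusted p was 0.720 for Pdgfra and Cd34, 0.910 for Pdgfrb and 0.914 for Cd248. Deviations of same-numbered libraries from their group means correlated at 0.369 over all genes and at 0.221 over UP genes. With 2 pairs this cannot settle whether the numbers pair the libraries. The log2 ratios of Pdgfra (0.0046 to 0.673) and Cd34 (0.0029 to 0.972) kept their direction under all 12 alternatives. The lowest values came from a pseudocount of 1. The highest came from the median of the bins, which in set 1 was without coverage for both genes. Under the other alternatives they lay between 0.138 and 0.290 for Pdgfra and between 0.0598 and 0.213 for Cd34. The log2 ratio of Pdgfrb turned to 0.0707 without Psat1KO replicate 2, within -0.197 to 0.0707 over libraries left out. That of Cd248 (-0.168 to 0.243 over libraries left out) turned to -0.0285 with scaling to each library's median gene, to -0.14 without Psat1KO replicate 1 and to -0.17 without CTRL replicate 2. Where 1 library of a genotype remained, it was assumed to vary like the other genotype. With the median of the bins as level, the mean rank among the UP genes moved to 131.25 for Pdgfra (164.5 with the mean), to 140.5 for Cd34 (165.75) and to 12.5 for Cd248 (3.5). In set 1, however, most bins of these genes were below 0.001. There were 71 and 77 such bins in Pdgfra (Psat1KO and CTRL), 72 and 76 in Cd34, and 53 and 53 in Cd248. For these genes ranks by the median thus rest on values at or near 0 in set 1. With bins limited to 0.5 the mean rank was 1.5 for Cd248. The cause of these moves was not tested. Single bins of Pdgfra and Cd34 in set 1 held at most 4.02 and 7.19 reads in Psat1KO and 3.99 and 6 reads in CTRL, and the part of depth in their profiles was not tested.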
